A study of Homo sapiens with 12 samples.

Results

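The 43 genes described here encode the B-cell receptor signalling machinery, and comprise receptor chains, kinases, adaptors, phosphatases and coreceptors that were listed by symbol. Each symbol matched 1 of the 58884 genes of the count table through its Ensembl identifier, and all 43 passed the filter on low counts in every comparison. RNA was sequenced from 2 diffuse large B-cell lymphoma (DLBCL) cell lines, U2932 and TMD8, both of the activated B-cell subtype and both labelled as wild type. Whether the 43 genes carry mutations in these lines was not examined. Every culture received 20 µg/mL of an antibody for 4 h, namely rituximab (R), ofatumumab (OF) or an isotype control of human IgG1. This gave 6 conditions of 2 libraries, 12 libraries in all. R and OF are monoclonal antibodies against CD20 that bind different parts of it, and the isotype control shares their constant class without a CD20 binding site. Replicates came from a single line that was split into cultures kept apart for a week, so each cell line stands for 1 tumour and p-values describe the spread between such cultures.

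The B-cell receptor is a membrane immunoglobulin held in a complex with the signalling chains CD79A and CD79B, whose tails carry tyrosine motifs. After receptor ligation the Src-family kinases LYN, FYN, BLK and FGR phosphorylate these tails, SYK docks on them, and SYK and BTK, assembled on the adaptor BLNK, activate phospholipase C gamma 2, phosphoinositide 3-kinase and BCL10 and MALT1, which lead to NF-kB. Opposing this, CSK and its membrane anchor PAG1 keep Src-family kinases closed. PTPN6 (SHP-1) and INPP5D (SHIP1) are recruited by inhibitory coreceptors such as CD72 and some FCRL proteins. DLBCL of the activated B-cell subtype is known for its reliance on chronic signalling through this receptor.

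Library depth ran from 15440226 to 27110612 counts, and the members together took 0.471% to 0.958% of the counts of a library. Among TMD8 libraries, the second OF and the second isotype replicate differed in composition from the remaining 4, with 7.16% and 6.5% of counts on ribosomal protein genes against 10.0% to 10.8%, and 3.73% and 3.99% on mitochondrial genes against 5.70% to 6.23%. Replicates differed by more than counting error in each condition, with a chi-square per degree of freedom of 2.42 to 10.8 in U2932 and TMD8 R, 62.2 for TMD8 OF and 106 for TMD8 isotype. The 7 B-cell identity markers were detected in each library. Myeloid markers summed to at most 1.40 CPM (the count of a gene scaled to the size of its library after TMM normalization), and T and NK markers to at most 1.54 CPM in TMD8 and 12.1 CPM in U2932, where CD247 made 7.57 to 11.4 CPM.

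Under isotype, CD79A was the most abundant member in both cell lines when levels were divided by transcript length. It reached a mean of 358 CPM per kb in U2932 and 265 CPM per kb in TMD8, and its replicates did not overlap those of the next member in either line. In U2932 the next members were BLNK at 94.7, GRB2 at 88.6 and CD81 at 87.8 CPM per kb, with overlapping replicates. In TMD8 they were GRB2 and CSK, each at 119 CPM per kb, which also overlapped, and SH3BP5 at 105 CPM per kb. Neighbours in this order overlapped in 24 of 42 pairs in U2932 and 33 of 42 pairs in TMD8. The lowest members were FGR at 0.865 CPM per kb in U2932, and VAV3 at 0.759, FGR at 0.781 and FYN at 0.814 CPM per kb in TMD8.

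**Figure D1:**
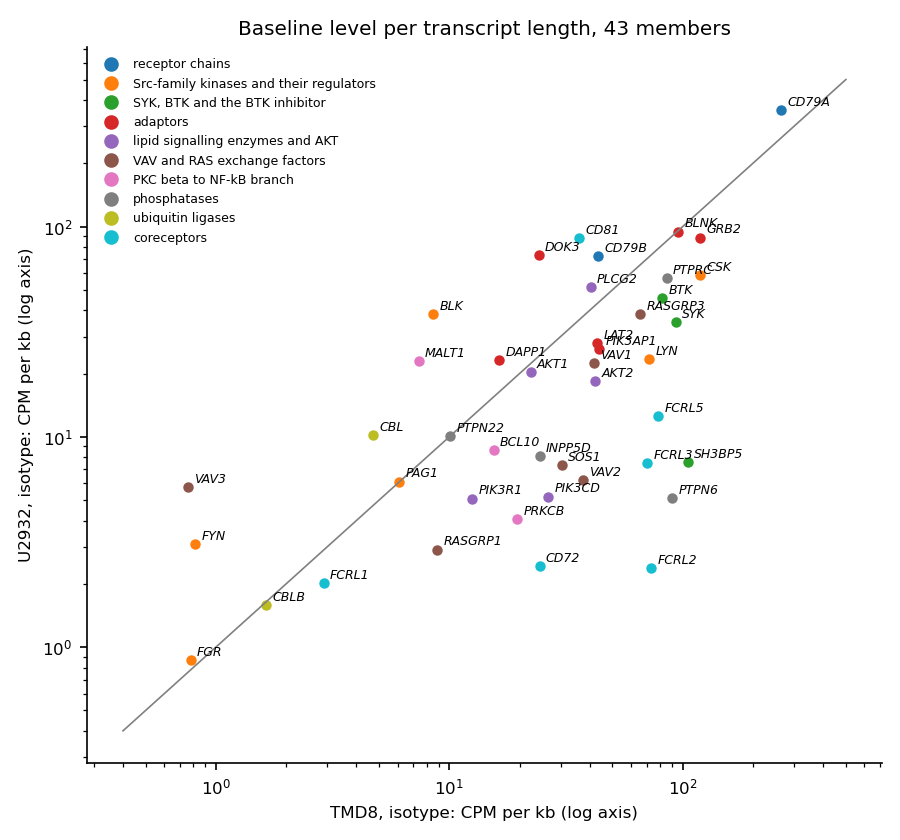
Mean level of each of the 43 members under isotype in U2932 (vertical) against TMD8 (horizontal), in CPM per kb of transcript on log axes; each point is the mean of 2 libraries, colours give the role and the line marks equal levels. CD79A lies at the top right, while FCRL2, PTPN6 and SH3BP5 lie far below the line and VAV3, FYN and BLK above it.

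The comparison of isotype libraries asked how the machinery differed between the lines before anti-CD20. Of 43 members, 36 differed at an adjusted p-value under 0.10 in edgeR's quasi-likelihood test, 10 higher and 26 lower in U2932, where 66.8% of all 16187 genes tested differed, 33.2% higher and 33.7% lower. At a difference of at least 1.5-fold there were 8 higher and 24 lower (background 28.1% and 28%). The median log2 difference, U2932 minus TMD8, was −0.77 over the members and −0.02 over all genes tested. AKT1, BLNK, CBLB, FGR, PAG1, PLCG2 and PTPN22 were the 7 members that did not pass, with log2 differences from −0.15 to 0.34.

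**Figure D2:**
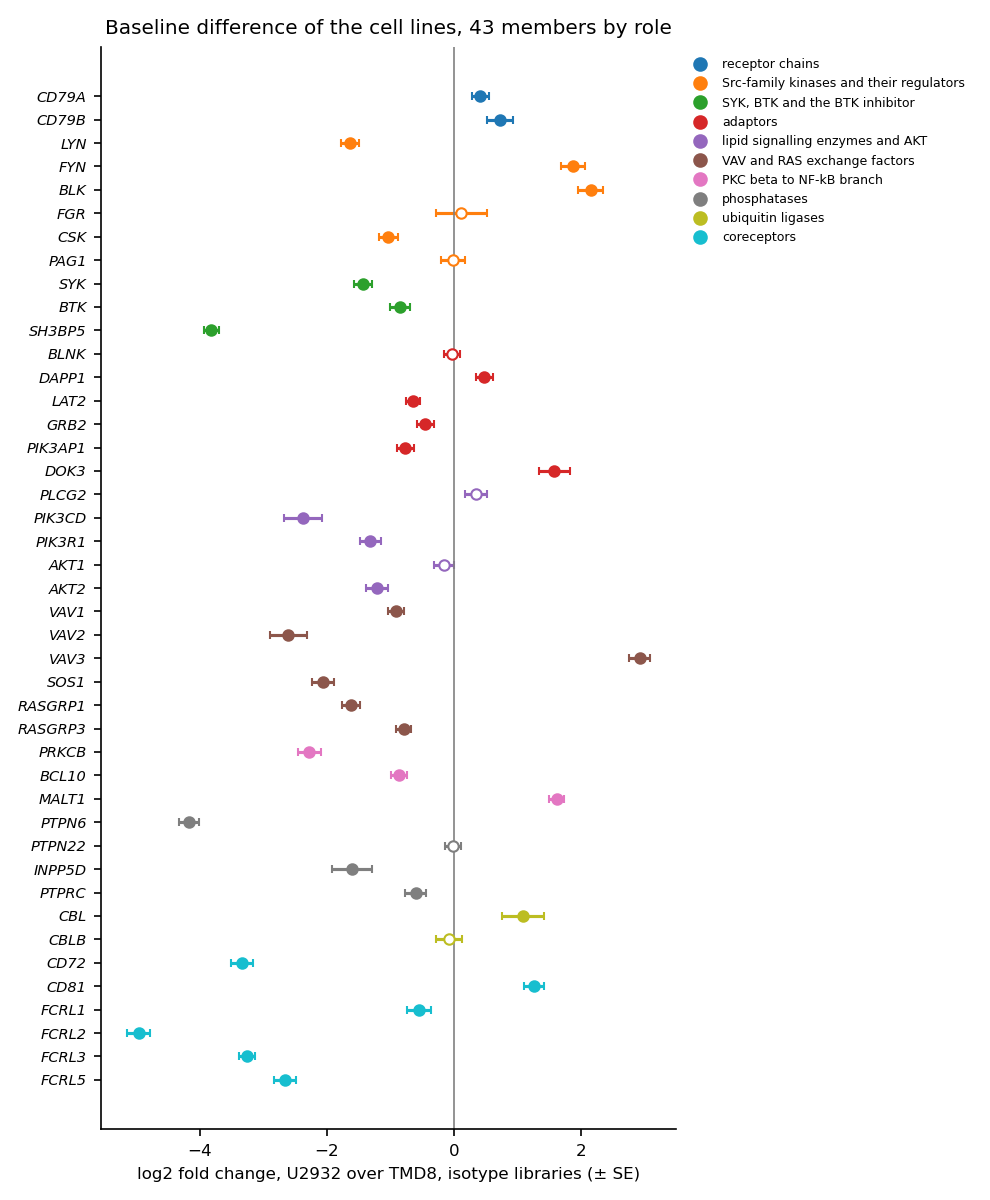
Log2 fold change of each member between the isotype libraries of U2932 and TMD8 (horizontal), ordered and coloured by role, with standard errors; filled points passed an adjusted p-value of 0.10 and open points did not. The points run from FCRL2 at −4.96 to VAV3 at 2.92, and 5 of the 6 coreceptors lie left of 0.

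Both receptor chains were higher in U2932. CD79A stood at 474 and 427 CPM in U2932 and at 323 and 343 CPM in TMD8, a log2 difference of 0.41 (SE 0.13, edgeR adjusted p = 0.0173). CD79B, its partner, stood at 95.6 and 88.7 CPM against 67.2 and 43.1 CPM, a log2 difference of 0.72 (SE 0.20, edgeR adjusted p = 0.00955). Neither chain overlapped between the lines. Reads of CD79B are uncertain in part, since 13.8% of its exon bases also lie in AC127029.3 on the same strand.

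The Src-family kinases split by member. BLK, a kinase typical of B cells, had 109 and 91.9 CPM in U2932 and 19.2 and 25.3 CPM in TMD8, a log2 difference of 2.15 (SE 0.20), and FYN was also higher in U2932 by 1.87 (SE 0.19). LYN, the main Src-family kinase of resting B cells, went the other way, with 140 and 133 CPM against 369 and 467 CPM, a difference of −1.64 (SE 0.14). Thus LYN was below TMD8 while BLK and FYN were above it, without overlap of libraries. CSK, which phosphorylates the closing tyrosine of these kinases, was lower in U2932 by 1.04 on the log2 scale (SE 0.15), and its anchor PAG1 differed by −0.02 (SE 0.19, edgeR adjusted p = 0.94).

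SYK and BTK, the kinases that relay the signal, were both lower in U2932. SYK had 183 and 168 CPM against 412 and 522 CPM in TMD8, and BTK had 128 and 125 CPM against 255 and 197 CPM. The log2 differences were −1.43 (SE 0.15) for SYK and −0.86 (SE 0.16) for BTK, with no overlap for either. SH3BP5, which binds and inhibits BTK, had 20.7 and 22.1 CPM in U2932 against 291 and 303 CPM in TMD8, a 14.1-fold difference (log2 −3.82, SE 0.12, edgeR adjusted p = 1.72e-09). On the opposite strand, SH3BP5-AS1 covers 47.5% of the SH3BP5 exon bases, and whether the counting used the strand is not given in the sources used here.

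Among the adaptors DOK3 and DAPP1 were higher in U2932, LAT2, GRB2 and PIK3AP1 were lower, and BLNK differed by −0.04 (SE 0.13). Of the lipid signalling enzymes and AKT kinases, PIK3CD, PIK3R1 and AKT2 were lower in U2932. PIK3CD, the catalytic subunit of PI3K delta, had 31.4 and 25.6 CPM against 96.9 and 195 CPM, a log2 difference of −2.38 (SE 0.30) that became −1.79 without the 2 TMD8 libraries that stand apart.

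The exchange factors of the VAV family did not share a direction. VAV3 had 27.7 and 30.0 CPM in U2932 and 4.15 and 3.42 CPM in TMD8, a log2 difference of 2.92 (SE 0.16, edgeR adjusted p = 5.06e-08). VAV2 had 36.5 and 27.1 CPM against 131 and 251 CPM, a difference of −2.61 (SE 0.29) that was −2.07 without those 2 libraries. VAV1, the form typical of blood cells, was lower in U2932 by 0.92 on the log2 scale (SE 0.12). The RAS exchange factors SOS1, RASGRP1 and RASGRP3 were all lower in U2932. SOS1 had 54.2 and 71.3 CPM in U2932 and 230 and 286 CPM in TMD8, a difference of −2.06 (SE 0.17).

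In the branch to NF-kB, PRKCB, a protein kinase C of B cells, had 32.1 and 33.1 CPM in U2932 against 132 and 180 CPM in TMD8. Its log2 difference was −2.28 (SE 0.19). BCL10 was lower in U2932 as well, by 0.86 on the log2 scale, and MALT1, the protease that works with BCL10, was higher by 1.61 (SE 0.12). Protein kinase C genes outside the members lay apart between the lines in both directions, so PRKCB does not stand for the family. Among the ubiquitin ligases that end receptor signals, CBL was higher in U2932 by 1.08 (SE 0.33) and CBLB differed by −0.08 (SE 0.20).

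The phosphatase PTPN6 showed the second largest difference. It had 12.8 and 11.6 CPM in U2932 and 189 and 242 CPM in TMD8, 18.0-fold apart (log2 −4.17, SE 0.16, edgeR adjusted p = 4.22e-09). INPP5D and PTPRC (CD45) were lower in U2932 too, and PTPN22 differed by −0.03 (SE 0.13).

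Of 6 coreceptors, 5 were lower in U2932 and CD81, a tetraspanin, was higher by 1.26 (SE 0.16). CD72 had 4.63 and 5.25 CPM against 52.2 and 47.0 CPM, a log2 difference of −3.35 (SE 0.17), although 19.5% of its exon bases are shared with TESK1 and AL357874.1 on the other strand. The FCRL genes among the members encode Fc receptor-like membrane proteins. They lie on the same strand in the order FCRL5, FCRL3, FCRL2 and FCRL1 on chromosome 1, between 157513377 and 157820105 of GRCh38. FCRL4 is not a member and is taken up with the further genes of the pathway. FCRL2 had 5.65 and 6.61 CPM in U2932 and 202 and 176 CPM in TMD8, 31.2-fold apart (log2 −4.96, SE 0.18, edgeR adjusted p = 3.02e-09). FCRL3 had 32.0 and 38.6 CPM against 327 and 340 CPM, and FCRL5 had 61.4 and 74.2 CPM against 372 and 474 CPM. Of the FCRL members FCRL1, the last in this order, differed least, by −0.55 (SE 0.19, edgeR adjusted p = 0.0249), with 5.12 and 6.04 CPM against 8.29 and 7.82 CPM.

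Other markers moved with the cell line. The 5 plasma cell markers summed to 1280 to 1350 CPM in the isotype libraries of U2932 and 123 to 152 CPM in those of TMD8, with 4 higher and 1 lower in U2932, and none at 0. The summed B-cell identity markers, which include CD79A and CD79B, were 1910 to 1940 CPM and 2480 to 2520 CPM. Their part in the differences of the members was not tested. In bulk libraries such as these, fewer cells with a transcript and less of it per cell cannot be told apart.

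Upstream sequences are shown for FCRL2 and PTPN6, the members furthest apart between the lines, and for FCRL1, the FCRL member that differed least. CD79A, which is taken up with the antibodies, is shown as well. They are the 250 bases before a RefSeq transcript start in GRCh38.p14, given 5′ to 3′ on the gene's strand, with matches to 4 motifs in capitals. FCRL1 lies at chr1:157820121-157820370 and FCRL2 at chr1:157777133-157777382, both on the minus strand. PTPN6 has a start after chr12:6946327-6946576 and another after chr12:6951106-6951355, and CD79A lies at chr19:41877029-41877278, all on the plus strand.
FCRL1: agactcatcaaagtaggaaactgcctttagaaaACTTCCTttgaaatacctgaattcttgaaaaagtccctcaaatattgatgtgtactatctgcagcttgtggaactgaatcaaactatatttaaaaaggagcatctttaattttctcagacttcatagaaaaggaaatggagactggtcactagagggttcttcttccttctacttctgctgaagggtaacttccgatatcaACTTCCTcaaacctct
FCRL2: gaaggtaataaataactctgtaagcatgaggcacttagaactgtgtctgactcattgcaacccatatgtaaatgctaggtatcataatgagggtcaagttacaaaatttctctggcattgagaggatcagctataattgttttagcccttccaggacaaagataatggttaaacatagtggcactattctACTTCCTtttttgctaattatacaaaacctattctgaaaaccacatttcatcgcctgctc
PTPN6, upstream start: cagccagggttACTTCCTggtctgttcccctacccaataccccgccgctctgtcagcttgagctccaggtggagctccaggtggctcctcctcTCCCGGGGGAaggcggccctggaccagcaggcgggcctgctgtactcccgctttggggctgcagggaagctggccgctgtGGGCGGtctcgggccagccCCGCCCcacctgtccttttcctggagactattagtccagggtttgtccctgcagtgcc
PTPN6, downstream start: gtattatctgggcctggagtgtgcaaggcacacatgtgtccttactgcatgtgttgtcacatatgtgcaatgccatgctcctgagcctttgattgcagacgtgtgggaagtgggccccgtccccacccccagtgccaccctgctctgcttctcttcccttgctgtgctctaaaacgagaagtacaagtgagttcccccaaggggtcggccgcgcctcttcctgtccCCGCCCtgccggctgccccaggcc
CD79A: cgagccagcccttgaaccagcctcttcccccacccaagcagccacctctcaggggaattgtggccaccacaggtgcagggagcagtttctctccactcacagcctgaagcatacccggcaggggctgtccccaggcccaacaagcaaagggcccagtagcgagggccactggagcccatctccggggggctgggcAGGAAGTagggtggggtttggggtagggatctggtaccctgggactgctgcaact

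The motifs, searched on both strands, were an ETS core that PU.1 also binds (AGGAAGT), an EBF1 motif (TCCC and GGGA with any 2 bases between them), the octamer (ATGCAAAT) and a GC box (GGGCGG), which do not overlap each other in these windows. FCRL1 held the ETS core at 2 places and FCRL2 and CD79A at 1 each, while the upstream PTPN6 window held 1 ETS core, 1 EBF1 motif and 2 GC boxes, and the downstream window 1 GC box. RefSeq windows of this length were at hand for 36 members, 60 windows in all. The ETS core was in 15 of these 60 windows (25.0%) and in 7.01% of 35116 windows of all genes, and the GC box in 30 windows and 42.64%. The EBF1 motif was in 1.06% of all windows and among members only in PTPN6, and the octamer in 1.63% and among members only in PRKCB. These are matches of letters and not measured binding.

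In U2932 the comparison with isotype asked how anti-CD20 changed the machinery. With R, 19 members rose and 4 fell, where 16.8% of 14635 genes tested rose and 17.4% fell (34.2% in all, adjusted p under 0.10). With OF, 22 rose and 5 fell, where 18.7% of all genes rose and 17.8% fell (36.4% in all). The changes were small, and 6 members passed with R and 7 with OF at 1.5-fold or more, each of them higher. The background at 1.5-fold was 5.19% (R) and 5.9% (OF) higher, and 10.2% and 11.1% in either direction. Scaling by library size alone moved the median of all genes in the R comparison from −0.02 to −0.12 and gave 12 members higher and 8 lower with R (background 11.7% and 25.3%), and 15 higher and 8 lower with OF (background 13.4% and 23.8%). After a GC content correction 24 members were higher and 4 lower with R (background 20.8% and 20.1%). With OF 24 were higher and 3 lower after it (background 20.2% and 19.8%). The R and OF comparisons share their isotype libraries, so their values are given side by side.

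The rises were led by CD79A and CSK, whose transcripts have 60.7% and 63.6% GC. CD79A stood at 822 and 817 CPM with R, 832 and 803 CPM with OF and 474 and 427 CPM with isotype. Every anti-CD20 library lay above both isotype libraries, with log2 fold changes of 0.85 (SE 0.08, edgeR adjusted p = 1.8e-08) for R and 0.84 (SE 0.08, edgeR adjusted p = 2.3e-08) for OF. CSK stood at 309 and 309 CPM with R, 350 and 349 CPM with OF and 180 and 146 CPM with isotype, again without overlap, and rose by 0.90 (SE 0.09, edgeR adjusted p = 7.15e-08) and 1.08 (SE 0.09, edgeR adjusted p = 4.75e-09). CD79B had 110 and 110 CPM with R, 109 and 104 CPM with OF and 95.6 and 88.7 CPM with isotype, and passed with R (0.24, SE 0.09, edgeR adjusted p = 0.0501) but not with OF (0.19, SE 0.09, edgeR adjusted p = 0.13). Of 7 B-cell identity markers, CD79A and CD79B among them, 4 rose and 2 fell with R, and 3 rose and 0 fell with OF. Their sum went from 1910 to 1940 CPM with isotype to 2860 to 3070 CPM with R and 2870 to 2890 CPM with OF, with MS4A1 (852 to 1700 CPM over the U2932 libraries) and CD79A as its largest terms, and the part of these markers was not tested.

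Other Src-family members followed no common direction. FYN had 19.8 and 20.2 CPM with R, 19.2 and 18.9 CPM with OF and 10.9 and 11.5 CPM with isotype, and rose by 0.82 (SE 0.12) and 0.75 (SE 0.12). BLK rose by 0.25 and 0.39. LYN had 130 and 145 CPM, 139 and 139 CPM, and 140 and 133 CPM, overlapping, with a log2 fold change of 0.01 for OF (SE 0.09). PAG1, the membrane anchor of CSK, fell while CSK rose, with 52.7 and 50.1 CPM with R, 52.2 and 54.0 CPM with OF and 64.7 and 67.0 CPM with isotype, or by 0.38 and 0.33 on the log2 scale.

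SYK had 207 and 193 CPM with R, 220 and 221 CPM with OF and 183 and 168 CPM with isotype. It rose with OF by 0.31 (SE 0.09, edgeR adjusted p = 0.00818) and missed the threshold with R at 0.17 (SE 0.09, edgeR adjusted p = 0.167). BTK, at 124 and 135 CPM, 123 and 128 CPM, and 128 and 125 CPM, overlapped between antibodies, with a log2 fold change of −0.03 for OF (SE 0.09, edgeR adjusted p = 0.846). SH3BP5, its inhibitor, rose from 20.7 and 22.1 CPM to 28.9 and 31.1 CPM with R and 30.7 and 31.9 CPM with OF, by 0.47 (SE 0.11) and 0.53 (SE 0.11).

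Of 6 adaptors, 3 rose with R and 4 with OF, and of 5 lipid signalling enzymes and AKT kinases, 3 rose with each antibody. LAT2, a linker of lymphocyte membranes, had 96.4 and 93.2 CPM with R, 91.7 and 89.3 CPM with OF and 69.4 and 71.1 CPM with isotype, and rose by 0.41 (SE 0.09) and 0.35 (SE 0.09). AKT2 had 136 and 122 CPM, 151 and 152 CPM, and 107 and 88.3 CPM, and rose by 0.39 (SE 0.10) and 0.62 (SE 0.10). VAV1 had 89.0 and 84.4 CPM, 86.0 and 91.2 CPM, and 65.2 and 61.4 CPM, and rose by 0.44 (SE 0.09) and 0.47 (SE 0.09). None of these 3 genes overlapped between anti-CD20 and isotype. DAPP1, DOK3, PLCG2, PIK3R1 and MALT1 rose with each antibody, RASGRP1 passed with R, and GRB2, RASGRP3, VAV2 and INPP5D passed with OF, all by 0.20 to 0.33 on the log2 scale. INPP5D passed with R once the replicate culture was a block (0.25, edgeR adjusted p = 0.101, and 0.0584 with the block). After a GC content correction VAV2 no longer passed with OF (0.17, edgeR adjusted p = 0.157), and INPP5D with OF was at 0.21, with an edgeR adjusted p of 0.0775, or 0.103 with the block as well.

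Among the inhibitory phosphatases and coreceptors, PTPN6, CD72 and FCRL5 rose with each antibody. PTPN6 had 21.1 and 21.2 CPM with R, 19.0 and 20.4 CPM with OF and 12.8 and 11.6 CPM with isotype, and rose by 0.78 (SE 0.12, edgeR adjusted p = 2.83e-05) and 0.67 (SE 0.12, edgeR adjusted p = 0.000172). CD72, a coreceptor that recruits PTPN6, had 7.53 and 9.09 CPM, 7.62 and 6.67 CPM, and 4.63 and 5.25 CPM, and rose by 0.73 (SE 0.17) and 0.51 (SE 0.18). FCRL5 had 116 and 111 CPM, 103 and 111 CPM, and 61.4 and 74.2 CPM, and rose by 0.73 (SE 0.10) and 0.64 (SE 0.10). For these 3 genes the anti-CD20 libraries all lay above the isotype libraries. FCRL1, FCRL2 and FCRL3 did not pass. CD81, the tetraspanin, rose from 147 and 120 CPM to 191 and 195 CPM with R and 217 and 204 CPM with OF, by 0.52 (SE 0.10) and 0.64 (SE 0.10).

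The members that fell were PAG1, SOS1 and both ubiquitin ligases with each antibody, and BCL10 with OF. CBL, which marks SYK and other kinases for degradation, had 89.6 and 83.1 CPM with R, 95.2 and 98.4 CPM with OF and 116 and 112 CPM with isotype, without overlap, and fell by 0.42 (SE 0.09, edgeR adjusted p = 0.00107) and 0.25 (SE 0.09, edgeR adjusted p = 0.0365). CBLB fell by 0.39 on the log2 scale with either antibody. With all 12 libraries in one fit, 0 members were lower with either antibody, where 3.8% (R) and 4.76% (OF) of all genes were. After a GC content correction BCL10 (−0.17, edgeR adjusted p = 0.136) and CBLB (−0.27, edgeR adjusted p = 0.144) no longer passed with OF, and SOS1 with OF went from −0.37 to −0.22 (edgeR adjusted p = 0.0527).

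Leaving out each U2932 library in turn, 14 members passed with R and 10 with OF in all 6 fits, as did 16.6% and 15.7% of the 14623 genes tested in each of those fits. The 10 were CD79A, FYN, BLK, CSK, SH3BP5, AKT2, VAV1, PTPN6, CD81 and FCRL5. The OF count fell to 13 without OF replicate 1 and 14 without OF replicate 2 (background 20.5% and 21.7%), each time without CBL, while LAT2 was lost without OF replicate 1 and CD72 was lost without OF replicate 1 or isotype replicate 1.

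**Figure D3:**
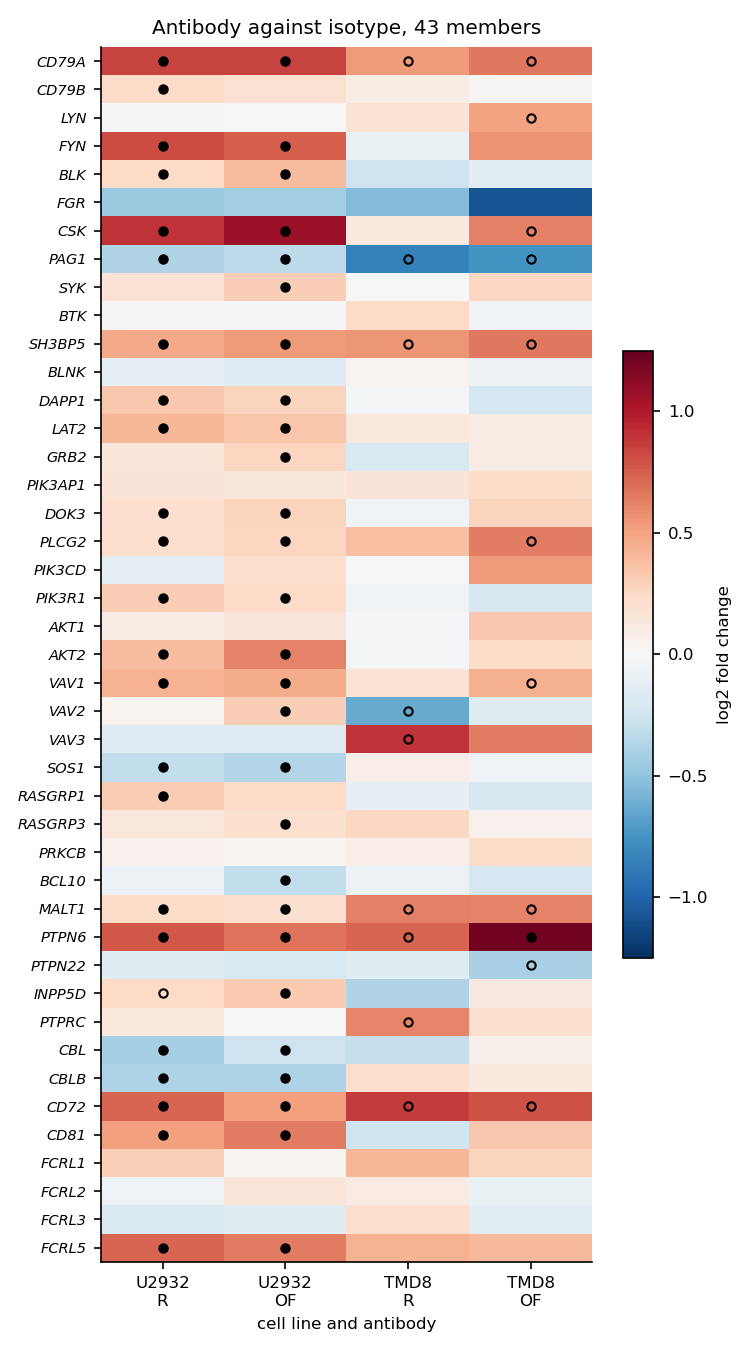
Log2 fold change of each member (rows, by role) with R or OF against isotype in U2932 and TMD8 (columns), from blue (lower) to red (higher); filled dots mark an adjusted p-value under 0.10 and open dots mark members that passed only with the replicate block. U2932 has 23 and 27 filled dots, TMD8 has 0 and 1.

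In TMD8 the same comparisons were less precise, with a median standard error over the members of 0.19 against 0.10 in U2932. With R, 0 members passed in edgeR's test, where 0.647% of 14227 genes did, 8 had an unadjusted p-value under 0.05 (background 15.9%), and DESeq2 called 6 (background 5.07%). With OF, PTPN6 alone passed, where 0.815% of all genes did, and 12 had an unadjusted p-value under 0.05 (background 14.1%). Same-numbered libraries of a line were taken to come from the same culture, which their labels do not state. With that culture as a block 9 members passed with R, 7 higher and 2 lower (background 17.7%, of which 8.99% higher and 8.73% lower). With OF and the block 11 passed, 9 higher and 2 lower (background 14.3%, of which 7.45% higher and 6.87% lower). Without OF replicate 2 and isotype replicate 2, an alternative chosen after the values were seen that leaves 1 library in each of these conditions, 18 members passed with R and 18 with OF (background 30.3% and 23.4%). In that fit the lone libraries are assumed to vary like the R libraries.

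PTPN6 had 378 and 345 CPM with R, 522 and 479 CPM with OF and 189 and 242 CPM with isotype in TMD8. All 4 anti-CD20 libraries lay above both isotype libraries, and the OF libraries above the R libraries. It rose with OF by 1.21 (SE 0.19, edgeR adjusted p = 0.0935, and 0.00651 with the block), or 1.43 without the 2 libraries that stand apart. With R the log2 fold change was 0.73 (SE 0.19, edgeR adjusted p = 0.153, and 0.0275 with the block). The OF call was kept in 1 of 6 fits that each left out a library, the one without isotype replicate 2, with adjusted p-values from 0.0534 to 0.376 in edgeR.

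CD79A, CD72, MALT1 and SH3BP5 also passed with the block for each antibody, all higher, and PAG1 lower. The 5 plasma cell markers summed to 123 to 152 CPM with isotype, 225 to 230 CPM with R and 225 to 284 CPM with OF in TMD8. PRDM1, at 68.2 to 229 CPM over the TMD8 libraries, was the largest term. The 7 B-cell identity markers, CD79A included, summed to 2480 to 2520, 3500 to 3750 and 3230 to 3530 CPM. Without the block 0 markers of either set passed. With the block 2 plasma cell markers were higher with each antibody, and 2 B-cell identity markers with R and 3 with OF, with 0 lower, and their part was not tested. MALT1 and PAG1 were chosen for description once their values were known. CD79A had 467 and 508 CPM with R, 575 and 482 CPM with OF and 323 and 343 CPM with isotype. The anti-CD20 libraries did not overlap the isotype libraries, and the log2 fold changes were 0.53 for R (SE 0.18, edgeR adjusted p = 0.23, and 0.0609 with the block) and 0.66 for OF (SE 0.18, edgeR adjusted p = 0.182, and 0.0361 with the block). Without the 2 libraries that stand apart they were 0.56 and 0.80.

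CD72 had 90.6 and 93.5 CPM with R, 97.9 and 75.2 CPM with OF and 52.2 and 47.0 CPM with isotype, with every anti-CD20 library above both isotype libraries. Its log2 fold changes were 0.87 for R (SE 0.18, edgeR adjusted p = 0.119, and 0.00966 with the block) and 0.79 for OF (SE 0.18, edgeR adjusted p = 0.144, and 0.0164 with the block). MALT1 had 109 and 108 CPM, 108 and 107 CPM, and 71.5 and 67.2 CPM, the tightest of these members, with 0.63 for R and 0.62 for OF (edgeR adjusted p = 0.0182 and 0.022 with the block). SH3BP5 had 451 and 433 CPM, 484 and 462 CPM, and 291 and 303 CPM, with 0.56 and 0.66 (edgeR adjusted p = 0.0389 and 0.025 with the block). PAG1 had 34.0 and 39.8 CPM, 33.3 and 45.6 CPM, and 53.2 and 78.1 CPM, lower in all 4 anti-CD20 libraries, with −0.85 and −0.74 (edgeR adjusted p = 0.00981 and 0.0167 with the block). In U2932 these 6 genes, PTPN6 included, passed in the same direction with each antibody. Of all genes, 34.2% passed with R and 36.4% with OF in U2932, in either direction. The share of all genes that passed alike in both lines was not counted.

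**Figure D4:**
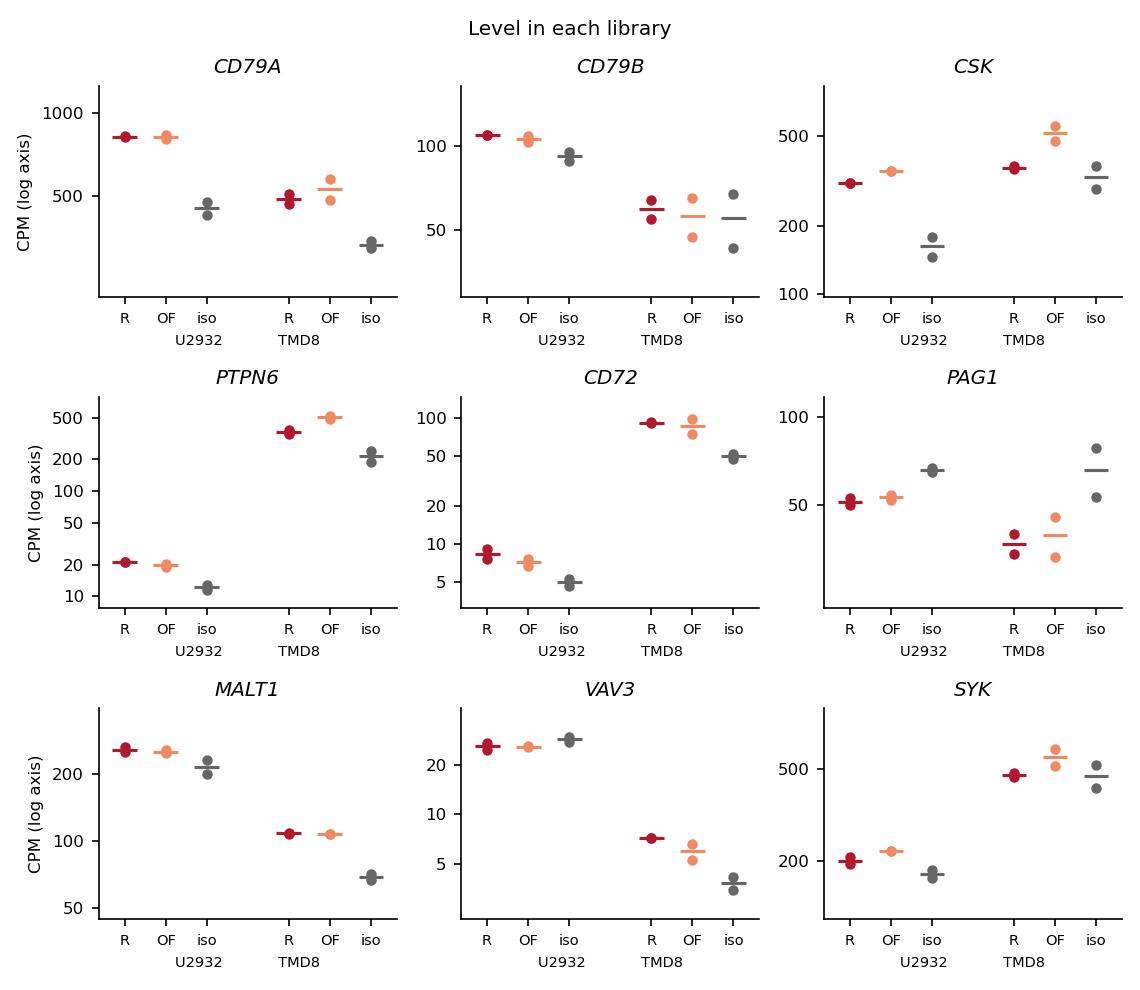
Level of 9 members in each of the 12 libraries, in CPM on log axes whose range differs between panels; points are libraries, bars are means of 2 libraries, and iso is the isotype control. CD79A, PTPN6, CD72 and MALT1 are above isotype and PAG1 below it in every anti-CD20 library of both lines, whereas VAV3 is above isotype in TMD8 alone.

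The remaining calls with the block in TMD8 belonged to 1 antibody each. They were VAV3 and PTPRC higher and VAV2 lower with R, and CSK, VAV1, PLCG2 and LYN higher and PTPN22 lower with OF. LYN had 500 and 449 CPM with R, 582 and 614 CPM with OF and 369 and 467 CPM with isotype, where R overlapped isotype and OF did not, and its OF value was 0.51 (SE 0.19, edgeR adjusted p = 0.306, and 0.0866 with the block). CSK had 358 and 368 CPM, 475 and 555 CPM, and 291 and 368 CPM, with 0.63 for OF (SE 0.19, edgeR adjusted p = 0.208, and 0.0319 with the block).

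The other members at the head of the pathway did not pass in TMD8 in either fit. CD79B had 54.7 and 64.4 CPM with R, 65.0 and 47.1 CPM with OF and 67.2 and 43.1 CPM with isotype. SYK had 459 and 482 CPM, 516 and 611 CPM, and 412 and 522 CPM, and BTK had 279 and 261 CPM, 250 and 191 CPM, and 255 and 197 CPM. The libraries of CD79B and SYK overlapped isotype with both antibodies, and those of BTK with OF. FYN, which rose in U2932, had 2.80 and 2.92 CPM with R, 4.53 and 4.34 CPM with OF and 2.35 and 3.56 CPM with isotype. It did not pass with either antibody.

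Of the other members that changed in U2932, FCRL5 had 594 and 560 CPM with R, 495 and 636 CPM with OF and 372 and 474 CPM with isotype in TMD8, AKT2 had 215 and 227, 240 and 285, and 190 and 256 CPM, and VAV1 had 136 and 132, 160 and 163, and 107 and 128 CPM. CD81 had 46.4 and 46.6, 65.3 and 73.6, and 46.5 and 62.9 CPM, LAT2 had 112 and 128, 119 and 114, and 110 and 107 CPM, and CBL had 42.0 and 45.9, 38.1 and 73.0, and 33.1 and 72.9 CPM. FCRL5, VAV1 and LAT2 lay above isotype in every anti-CD20 library. AKT2 and CBL overlapped it with both antibodies and CD81 with R, and CBL varied most between replicates among these 6 genes. In TMD8 only VAV1 of these genes passed, with OF and the block. Of all members, 16 lay above isotype without overlap with R and 16 with OF, and 5 and 6 lay below it. The share of all genes without overlap was not counted.

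FCRL2, FCRL3 and PRKCB combined large baseline differences with no antibody call. FCRL2 had 5.15 and 6.90 CPM with R and 6.91 and 6.90 CPM with OF in U2932, and 217 and 195 CPM with R and 191 and 168 CPM with OF in TMD8. FCRL3 had 30.9 and 32.1 CPM with R and 31.6 and 32.9 CPM with OF in U2932, and 391 and 390, and 309 and 306 CPM in TMD8. PRKCB had 34.5 and 34.1, and 30.7 and 37.0 CPM in U2932, and 160 and 173, and 158 and 210 CPM in TMD8. Each of these 3 genes stayed on its own side of the other cell line in all libraries. PIK3CD had 28.4 and 24.8, and 31.8 and 35.5 CPM in U2932, and 141 and 152, and 170 and 254 CPM in TMD8, with no call either.

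BLK, SOS1 and VAV2 kept their baseline order too. BLK had 127 and 116 CPM with R and 135 and 132 CPM with OF in U2932, and 17.6 and 20.0, and 16.5 and 24.0 CPM in TMD8. SOS1 had 53.8 and 49.0, and 50.2 and 48.2 CPM in U2932, and 296 and 255, and 229 and 274 CPM in TMD8. VAV2 had 32.3 and 33.5, and 39.3 and 40.3 CPM in U2932, and 119 and 131, and 138 and 208 CPM in TMD8. In every library BLK was higher in U2932, and SOS1 and VAV2 were higher in TMD8.

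R and OF were compared directly to ask whether the antibodies differed from each other. In U2932, at an adjusted p-value under 0.30, 0 members passed in edgeR's test and 0 in DESeq2, where 0.00683% of all genes passed, and the log2 differences, R minus OF, ran from −0.34 to 0.28 with a median standard error of 0.10. VAV2, AKT2 and PIK3CD had an unadjusted p-value under 0.05 (background 5.1%), each lower with R. In TMD8, at 0.10, 0 members passed in edgeR's test and 0 in DESeq2, where 0% of all genes passed. The differences ran from −0.64 to 0.54 with a median standard error of 0.19. With no gene called, this count of 0 says nothing particular to the members. DESeq2 with the replicate block called 0.366% of all genes and 0 members. The study itself reported genes that differed between R and OF in TMD8 at this limit. CSK, PTPN6 and CD81 had an unadjusted p-value under 0.05 (background 4.09%), with log2 differences of −0.51, −0.48 and −0.59. These 3 genes passed without OF replicate 2 and isotype replicate 2 (background 4%), and had differences of −0.14, −0.21 and −0.24 after a GC content correction in the fit of all 6 libraries.

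The response to anti-CD20, taken as the mean of R and OF against isotype, was compared between the lines. VAV3 was the 1 member that passed, where 1.02% of 16187 genes did. In TMD8 it had 7.17 and 7.14 CPM with R, 5.28 and 6.57 CPM with OF and 4.15 and 3.42 CPM with isotype, and in U2932 24.8 and 27.5, 25.9 and 26.3, and 27.7 and 30.0 CPM. The anti-CD20 libraries lay above isotype in TMD8 and below it in U2932, and the response was higher in TMD8 by 0.94 on the log2 scale (SE 0.19, edgeR adjusted p = 0.0769, and 0.0167 with the block). With the block 7 members passed (background 6.84%), namely VAV3 and MALT1 with a higher response in TMD8, and CSK, CD81, RASGRP1, BLK and PAG1 with a lower one. For CSK this difference was −0.62 (SE 0.19, edgeR adjusted p = 0.197, and 0.0313 with the block). Without the 2 libraries that stand apart 12 passed (background 14.0%), VAV3, MALT1, CSK and BLK among them, and the values for VAV3 and CSK were 0.70 and −0.50.

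Over all 12 libraries, the cell line was the main source of variation of these genes. The median share of a member's sum of squares of log2 CPM was 89.9% between lines, 5.32% between antibodies within a line and 3.59% between replicates, against 66.8%, 14.7% and 11.3% over all genes tested. Members were also measured more precisely, with a median standard error between the lines of 0.16 against 0.23 over all genes tested. The part of this in the shares was not tested. FCRL2 and FCRL3 had the largest shares between lines, 99.7% and 99.4%. Differences between antibodies took most of the variation in PTPN22 (72.7%), PLCG2 (62.8%), PAG1 (61.5%), CSK (60.8%) and CD79A (56.3%). No replicate spread was taken off these shares, and they are not tests. PTPN22 varied little between lines (5.35%) and passed against isotype only with OF and the block in TMD8. BLNK, the adaptor that SYK phosphorylates, varied mainly between replicates (53.1%).

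Beyond the 43, a list of 90 further genes of the pathway was counted. In U2932 20 of 74 tested rose and 11 fell with R, and 22 rose and 11 fell with OF, where 16.8% (R) and 18.7% (OF) of all genes rose and 17.4% and 17.8% fell, with a median log2 fold change of 0.03 and 0.09 against −0.02 and 0.01 over all genes. The genes named had the smallest adjusted p-values and all rose. PIK3CB, a PI3K catalytic subunit, was at 35.8 to 38.7 CPM with R, 34.2 to 39.2 CPM with OF and 17.3 to 18.0 CPM with isotype. RAC2, a small GTPase of blood cells, rose by 0.60 and 0.63. SLA, an adaptor that lowers receptor signalling, rose by 0.70 with R. It was also above isotype with OF, at 27.8 to 28.1 CPM against 19.3 to 20.6 CPM. IGHM, the heavy chain of the receptor itself, rose by 0.67 with OF. It was also above isotype with R, at 4220 to 4230 CPM against 2610 to 3260 CPM.

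In TMD8, 0 of 78 of these genes passed in edgeR's test with either antibody, and with the block 11 were higher and 8 lower with R, and 16 higher and 3 lower with OF (background 8.99% and 8.73% for R, 7.45% and 6.87% for OF). Between the lines 25 of 80 were higher and 31 lower in U2932, where 33.2% and 33.7% of all genes were. FCRL4 was at 22.5 to 25.5 CPM in TMD8 and 0.219 to 0.356 CPM in U2932, and CD38, an ectoenzyme of activated B cells and plasma cells, was at 1.54 to 1.90 CPM in TMD8 and 107 to 124 CPM in U2932. YES1 and PIK3CG passed for a response that differed between the lines, with values higher in TMD8 by 1.43 and 0.83, and with the block 5 were higher and 2 lower (background 6.84%). Among 29 genes known to be induced by receptor stimulation, 8 of 28 tested rose and 4 fell with R in U2932, and 10 rose and 3 fell with OF, against the same background of 16.8% and 17.4% (R) and 18.7% and 17.8% (OF). In TMD8 0 rose and 2 fell with R, and 3 rose and 2 fell with OF (background 0.647% and 0.815% in either direction), and with the block 8 were higher and 6 lower with R and 11 higher and 5 lower with OF (background 17.7% and 14.3%).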

How the data were processed

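RNA-seq was done on 12 libraries, 2 for each of 3 antibodies and 2 cell lines. The authors deposited raw counts of reads per Ensembl gene. The submitters' processing notes name Trim Galore 0.6.0, cutadapt, FastQC, STAR 2.7.0e and DESeq2 1.26.0, with the build GRCh38. The annotation release and strand setting are not given in the sources used here. Symbols, positions and lengths came from GENCODE 29 (GRCh38). Read depth was 15440226 to 27110612 counts, 27447 of 58884 genes had no count, and 0 columns were left unused.

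For each line, edgeR 4.0.16 (R 4.3.3) was run on the counts of its 6 libraries with TMM scaling, filterByExpr (minimum count 10) and a quasi-likelihood fit of the 3 antibody means. Comparisons between lines used all 12 libraries. The Benjamini-Hochberg adjustment covered all genes tested, with calls under 0.10, or 0.30 for R against OF in U2932, after the limits of the study for R against OF. A call needed no minimum fold. CPM are TMM-scaled, CPM per kb divide by the length of the longest transcript, and log2 CPM for variance shares had a prior count of 2. The steps were tested on simulated data. Precision is given by the standard errors, since 2 cultures per condition measure the spread poorly.

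Same-numbered libraries of a line were taken to come from the same culture, so the culture was also fitted as a block. The study states that separate cultures of each line were treated with R, OF or isotype. The labels give only a replicate number and name no culture. The deviations of replicates correlated between conditions from −0.05 to 0.10 in U2932 and at 0.22, 0.23 and 0.69 in TMD8. Other alternatives were DESeq2 1.42.0, library size only, upper-quartile scaling, other filters, GC content correction (lowess span 0.3), other limits, other sets of libraries in the fit, and fits without each library. Members and lists were chosen with earlier results of these data known. All members were accounted for. Values per library were given for the 12 members with the smallest adjusted p-values against isotype, the 12 with the largest difference between lines, and CD79A, CD79B, LYN, SYK and BTK. Of 90 other pathway genes, up to 4 with the smallest adjusted p-values per comparison were named, except some that are not reported here. Promoter windows came from RefSeq (GRCh38.p14). Figures were drawn with matplotlib.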

Additional observations from a re-analysis of the deposited data

Results flagged for a closer look

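VAV3 was the member whose response to anti-CD20 differed between the cell lines by a test of that difference. The mean log2 fold change of R and OF against isotype was higher in TMD8 than in U2932 by 0.94 (SE 0.19, edgeR adjusted p = 0.0769, and 0.0167 with the replicate block). Its 4 anti-CD20 libraries lay above both isotype libraries in TMD8 and below both in U2932. Leaving out each of the 12 libraries in turn gave values from 0.79 to 1.07, and 3 of the 12 fits kept the call, with adjusted p-values from 0.0359 to 0.378 in edgeR. VAV3 was among the least abundant members in TMD8, at 3.42 to 7.17 CPM.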

How the results depend on the processing

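With 2 cultures per condition the count of calls depended on the fit, while no member called with or without the block changed sign in any alternative run. In U2932, the counts of 23 (R) and 27 (OF) members became 10 and 9 with all 12 libraries in one fit (7.46% and 8.69% of all genes) and 6 and 7 at 1.5-fold or more. Without each library in turn they ranged from 17 to 27 and from 13 to 29. In TMD8, the counts of 0 (R) and 1 (OF) became 6 and 6 in DESeq2 (5.07% and 4.18% of all genes). They were 4 and 3 with no filter, where 1093 and 908 genes passed in all. With the GC content correction they were 1 and 3 (3.31% and 3.12%), and with all 12 libraries 8 and 12 (12.3% and 9.93%). The replicate block gave 9 and 11 (17.7% and 14.3%), and the block with GC content correction 9 and 12 (16.5% and 15.7%). DESeq2 with the block gave 10 and 11 (12.8% and 10.2%). The OF count was 0 with library size only, with only the 4 libraries compared and at an adjusted p-value under 0.05. Without each TMD8 library they ranged from 0 to 2 and from 0 to 1, and without OF replicate 2 and isotype replicate 2, chosen after seeing the data, they were 18 and 18. R against OF in TMD8 gave 0 members without any single library and 3 without both of those. For a response that differed between the lines, the count was 1, where 165 genes passed in all. It became 3 in DESeq2 (655 genes in all) and 7 with the block (1108). The block with GC content correction gave 5 (1029), and DESeq2 with the block 5 (882). At an adjusted p-value under 0.05 it was 0 (59). Without single libraries it moved, as did the share of all genes, and both rose without those 2 libraries. The cause of these differences was not tested. The block changed no other count of members by more than 1.5 times. Between the lines, most members passed in each fit without a library, as did most of all genes tested. No paired analysis was possible between the lines because the numbers do not pair libraries of different lines.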
